A study of Mus musculus with 14 samples.

Results

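The miR-297, miR-466, miR-467 and miR-669 families were followed across small RNA libraries of 14 mouse tissues. Members were all names of the deposited count table that begin with these 4 numbers, star names included. They came to 80 of the 1046 names, and reads were counted for 47 of them and for none of the other 33. Names with identical values were counted once, which left 36 different rows with reads, or 37 with the row of zeros that the other 33 names share, of 739 different rows in the whole table. The tissues, all from C57BL/6J mice (a common inbred strain), were spleen, liver and kidney, lung and heart, the nervous tissues brain and cerebellum, the gut segments oesophagus, stomach, small intestine and colon, and pancreas, uterus and ovary. All 14 groups were of this strain and carried no treatment or engineered allele in the labels, which give no age or sex. Each tissue was 1 library of pooled total RNA, from 5 mice by the harvest step or 10 mice by the pooling step of the same label. There are therefore no replicates, no test between tissues was possible, and the intervals below (95%, exact) cover counting error only.

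Most hairpins of these families lie in a tandem array inside Sfmbt2, a gene for a polycomb-group protein. The array is a rodent expansion of short repeated hairpins. In the mouse, Sfmbt2 is known as an imprinted gene, expressed from the paternal chromosome in extraembryonic tissue, and its miRNAs are best known from placenta and embryonic stem cells. Like other miRNAs, they are thought to recognise target RNAs mainly through the seed, the bases near the 5′ end. By the RefSeq annotation of GRCm38.p6, 72 miRNA hairpin genes lie within Sfmbt2. None of them overlaps an annotated Sfmbt2 exon, and 0 exons lie between the outermost hairpins, so all are within 1 intron. Of the 80 names, 64 had all of their hairpins there, 8 had all of them elsewhere in the genome and 5 had hairpins in both places. The other 3 (miR-466a-3p, miR-466a-5p and miR-297a-5*) matched no hairpin gene by name. Of the 72 hairpin genes, 71 matched a deposited name and Mir466, number 56 in order, did not. Whether miR-466a comes from Mir466 was not settled by this match.

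The 8 names encoded only outside Sfmbt2 were miR-466i-3p, miR-466i-5p, miR-466j, miR-466k, miR-467f, miR-467g, miR-467h and miR-669n, and none had a read in any of the 14 libraries. RefSeq sequences were matched for 7 of the 80 names, all from this group. They are printed 5′ to 3′, with the seed (bases 2 to 8) in capitals, to show what members encoded outside Sfmbt2 look like.
miR-466i-3p: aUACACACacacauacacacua
miR-466j: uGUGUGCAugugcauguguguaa
miR-466k: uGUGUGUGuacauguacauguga
miR-467f: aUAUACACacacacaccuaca
miR-467g: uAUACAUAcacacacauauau
miR-467h: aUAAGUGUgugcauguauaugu
miR-669n: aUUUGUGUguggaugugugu

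No seed was shared among these 7 or with any other name of the table that had a RefSeq sequence. Among the 64 names encoded only inside Sfmbt2, 21 (32.8%) had no reads, as had 23.0% of all names deposited. With identical rows counted once within each group, the names inside Sfmbt2 held 2224 reads. Those with hairpins in both places (miR-297a, miR-297a*, miR-466f, miR-466f-3p and miR-466f-5p) held 15, and their 4 or fewer copies cannot be told apart in a count per name.

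All members were scarce. Together, with identical rows counted once, they held 2237 reads, or 0.00276% of the 81045836 reads of the table. Pancreas was the shallowest library (622132 reads) and small intestine the deepest (9341000), so a count of 0, which allows up to 3 reads, limits a name to 4.82 RPM (reads per 1000000 miRNA reads of the library) in pancreas and to 0.321 RPM in small intestine. miR-143, a miRNA of smooth muscle and other mesenchymal cells, took 98.7% of the reads of the library labelled colon and 87.1% of ovary, which lowers the RPM of every other name there. For that reason levels are also given per 1000000 reads other than miR-143. Marker miRNAs stood highest in their own tissue for liver, pancreas, spleen and small intestine, but the 3 intestinal names summed to 25.2 RPM in the library labelled colon and to 78772 RPM in that labelled uterus. Both are named by their labels.

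Spleen held the most of these miRNAs. Their summed level was 195.7 RPM (183–209) in spleen and 62.6 RPM (56.1–69.7) in brain. A middle group followed, with 27.1 RPM in lung, 25.9 in oesophagus, 21.2 in kidney, 21.0 in stomach, 15.9 in cerebellum and 13.9 in small intestine. The lowest sums were 6.67 RPM in the library labelled uterus, 6.43 in pancreas, 4.61 in heart, 4.10 in liver, 3.97 in ovary and 1.05 in the library labelled colon. These rest on 950 reads in spleen and 333 in brain, but on 4 in pancreas, 7 in the library labelled colon, 9 in ovary and 18 in cerebellum.

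**Figure D1:**
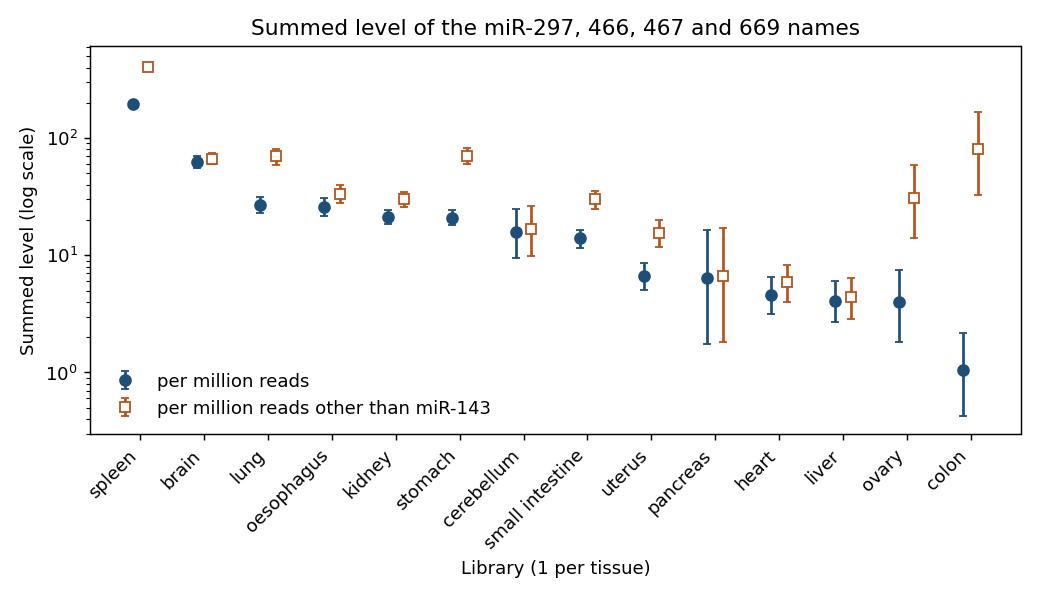
Summed level of all members in each library on a log axis, in RPM (filled circles) and scaled to the reads other than miR-143 (open squares), with exact Poisson 95% intervals. Spleen is highest on both scales, at 195.7 and 406, while the library labelled colon moves from last, at 1.05, to second, at 80.9.

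The step from spleen to brain was 3.12-fold (2.76–3.55) and that from brain to lung 2.31-fold (1.91–2.81), both beyond counting error. Neighbours in the order from lung to small intestine did not differ beyond counting error. The step from small intestine to the library labelled uterus, 2.09-fold (1.52–2.90), did. Spleen came first under each of the 4 scalings tried. The second place depended on the scaling: with reads other than miR-143 as the total, the library labelled colon (80.9, from 7 reads), stomach (70.5), lung (69.7) and brain (66.9) followed spleen (406) with neighbouring intervals that include equality, and spleen stood 6.07-fold (5.35–6.90) above brain.

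In bulk tissue, fewer cells of a type and less RNA per cell cannot be told apart. The 3 blood cell markers (miR-142-3p, miR-451 and miR-223) summed to 11325 RPM in spleen, 1066 in lung, 845 in kidney, 815 in small intestine and 732 in oesophagus, against 154 in brain and 2.65 in ovary. By RPM, spleen was thus highest for both groups, while brain was second for the members and low for the blood markers. The second place of brain for the members held on the RPM scale only. Brain ranked 5 with miR-143 left out of the totals and 4 with median-of-ratios factors. The part of blood cells in the member levels was not tested. The 2 neural markers (miR-9 and miR-124) summed to 67788 RPM in brain and 35465 in cerebellum, but to 28.6 in spleen.

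The reads were concentrated in few names. The 6 names that reached 10 RPM in some library held 82.1% (80.4–83.6%) of all member reads. By family, miR-669 held 58.3% (56.2–60.3%), miR-467 35.8% (33.8–37.8%), miR-466 4.78% (3.94–5.75%) and miR-297 1.12% (0.725–1.65%). Identical rows were counted once also where names of different families shared them, and with every row counted miR-669 held 57.9%. Over all libraries, 20 members reached 10 reads and 16 had 1 to 9.

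miR-669c was the most abundant member, with 860 reads from 1 hairpin. Its level was 87.4 RPM in spleen, 32.7 in brain, 6.61 in kidney, 6.28 in oesophagus, 5.57 in stomach, 5.05 in lung, 3.53 in cerebellum, 3.33 in the library with the uterus label, 2.998 in small intestine, 2.68 in liver and 1.87 in heart. No reads were counted in ovary, pancreas or the library labelled colon, where the limits are 1.32, 4.82 and 0.450 RPM. Spleen and brain thus stood apart from all other libraries for this name, at 424 and 174 reads against at most 61. Spleen exceeded brain 2.67-fold (2.23–3.20) and lung 17.3-fold (11.9–25.9). In spleen miR-669c ranked 103 among the 513 names with reads, and in brain 237 among 670.

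miR-669a-3p, an arm of hairpins matched by name to 12 copies in Sfmbt2, came second among the members by its highest level. It reached 22.0 RPM in spleen, followed by 4.55 in lung and 4.15 in stomach, with a median of 2.13 RPM over the 14 libraries and no reads in liver or the library labelled colon. Brain held 3.01 RPM, so spleen exceeded it 7.33-fold (4.31–13.3). Its partner arm, miR-669a-5p, reached 6.799 RPM in spleen and 1.88 in brain and was at 0 in 6 libraries.

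Among the miR-467 names, spread over tissues varied from name to name. miR-467a, from 10 hairpins, had 14.4 RPM in spleen, 5.45 in brain, 5.33 in oesophagus and 4.44 in kidney, with a median of 1.74 RPM and no reads in liver or pancreas. miR-467e reached 17.7 RPM in spleen and 5.45 in brain, then 2.53 in lung. For miR-467d the values were 11.3 RPM in spleen, 4.04 in lung and 3.62 in oesophagus, and it had reads in all 14 libraries, with a lowest value of 0.230 RPM in the library labelled uterus. miR-467c reached 11.9 RPM in spleen and at most 1.52 RPM elsewhere. In each of these 4 names spleen was above every other library on the RPM scale. With miR-143 left out of the totals, miR-467a was highest in the library labelled colon instead, at 34.7 per 1000000 from 3 reads.

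**Figure D2:**
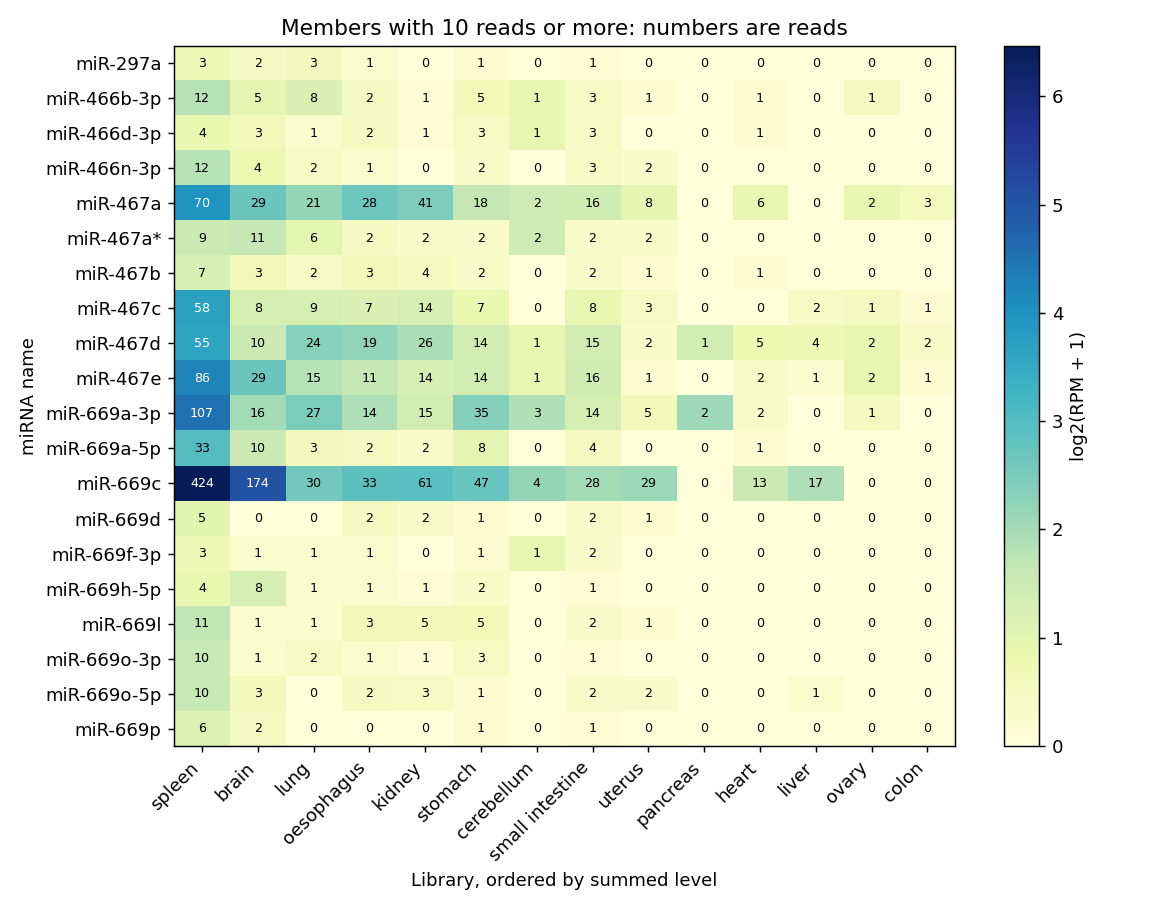
Heat map of log2(RPM + 1) for the 20 members with 10 reads or more (rows) in the 14 libraries (columns, ordered by summed level), with the read count written in each cell. The spleen column is the darkest in most rows, and miR-669c, with 424 reads in spleen and 174 in brain, is the darkest row.

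The less abundant members had the same leading library in most cases. Of the 20 members with 10 reads or more, 16 had their highest RPM in spleen, beside 10.9% of all names with that many reads. Some of the 20 passed this minimum only through their spleen reads (miR-297a, miR-669d, miR-669f-3p, miR-669o-3p and miR-669p). Of the 15 with 10 reads or more in the other 13 libraries together, a filter added after the data were seen, 12 were highest in spleen, beside 9.98% of all names that passed the same filter. Among the 20, the exceptions were miR-467a* and miR-669h-5p, highest in brain with 11 and 8 reads, and miR-466d-3p and miR-669f-3p, highest in cerebellum with 1 read each. With miR-143 left out of the totals 18 of the 20 were highest in spleen, the others being miR-467a and miR-297a. The share over all names was not taken at this scaling, so this count describes the members only. Because miR-143 made up 51.8% of reads in spleen and 6.32% in brain, leaving it out raises every name in spleen relative to brain. At 1 RPM or more, 16 of the 37 different rows were present in spleen, beside 46.1% of rows in the whole table, so detection there was near the background.

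Spleen and brain, the leading libraries by RPM, were compared name by name. Of the 20 members, 18 were higher in spleen, beside 30.2% of all names with 10 reads or more, and 16 were higher by 2-fold or more, beside 21.7% of those names. Of the 15 that passed the filter without spleen, 13 were higher and 12 were higher by 2-fold or more. The shares above belong to the filter with spleen included and were not taken for this one. The median difference, spleen minus brain, on the log2(RPM + 1) scale was 1.004 for the members and −1.21 for all 613 names with 10 reads or more. Brain held its highest RPM for 33.1% of those names. The interval of the ratio lay above 1 for 10 members, beside 18.8% of those names. These 10 included miR-669d (5 reads in spleen, 0 in brain) and miR-669o-3p (10 and 1), which passed the minimum only through spleen. This count and the median difference were not repeated for the 15. miR-467c (7.94-fold, 3.77–19.3), miR-669a-3p (7.33-fold) and miR-467d (6.025-fold, 3.04–13.3) were at the upper end among members with 50 or more reads in spleen. That minimum was set on spleen reads and leaves out miR-669l and miR-669o-3p, whose ratios were higher. They had 11 and 10 reads in spleen and 1 each in brain, with wide intervals that lay above 1. miR-669c (2.67-fold), miR-467a (2.64-fold, 1.69–4.23) and miR-467e (3.25-fold, 2.11–5.13) were lower in that ratio. For miR-467a* the ratio was 0.896 (0.328–2.38) and for miR-669h-5p 0.548 (0.121–2.04), both with intervals that include equality.

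**Figure D3:**
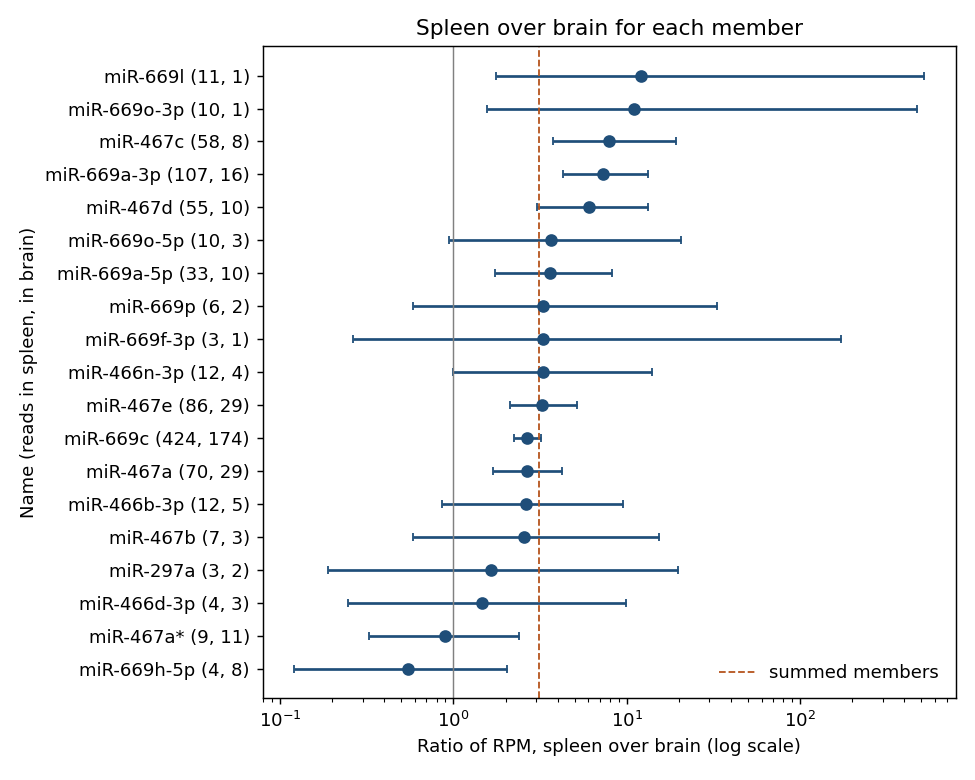
Ratio of RPM in spleen over brain on a log axis for each member with 10 reads or more and at least 1 read in brain, with exact 95% intervals. The dashed line marks the summed members at 3.12 and the grey line equality. miR-467c, miR-669a-3p and miR-467d lie between 6.025 and 7.94, above miR-669c at 2.67. miR-669l and miR-669o-3p lie higher still, with 1 read each in brain and wide intervals.

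The balance among members also differed between libraries, a comparison that needs no library total and is not moved by the miR-143 share. In the 7 libraries with 100 member reads or more, miR-669c made up 52.3% (46.7–57.7%) of member reads in brain and 44.6% (41.4–47.9%) in spleen. It made up 31.1% (24.7–38.1%) in kidney, 26.6% (20.2–33.7%) in stomach, 24.3% (17.3–32.4%) in oesophagus, 21.5% (14.8–29.6%) in small intestine and 18.6% (12.9–25.5%) in lung. The intervals of brain and spleen did not overlap those of the other 5. Among libraries with fewer member reads, liver had 17 of 26 (65.4%, 44.3–82.8%) and the library labelled uterus 29 of 58 (50.0%, 36.6–63.4%). Heart had 13 of 32 (40.6%, 23.7–59.4%) and cerebellum 4 of 18 (22.2%, 6.41–47.6%). Ovary, pancreas and the library labelled colon had 0 of 9, 4 and 7.

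**Figure D4:**
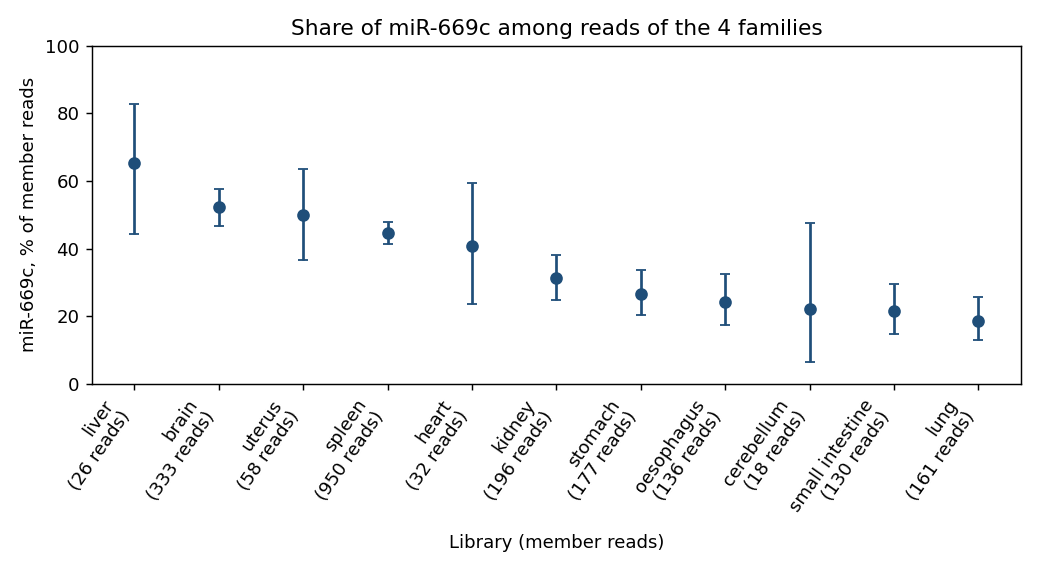
Share of miR-669c among the reads of all members, in percent, with exact binomial 95% intervals, for the 11 libraries with 10 member reads or more. Liver (65.4%) is the highest point, and the library labelled uterus (50.0%) lies between brain (52.3%) and spleen (44.6%). Brain and spleen lie above kidney (31.1%), stomach, oesophagus, small intestine and lung (18.6%). The wide intervals of liver, heart and cerebellum reflect 26, 32 and 18 reads.

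Set against the miR-467 names of the same library, miR-669c had 1.91 times their summed reads in brain (1.48–2.49) and 1.48 times in spleen (1.27–1.73). The ratio was 0.385 (0.244–0.593) in lung, 0.471 (0.302–0.723) in oesophagus, 0.475 (0.291–0.756) in small intestine and 0.604 (0.432–0.838) in kidney. It lay below 1 with its whole interval in 6 libraries, also in ovary and the library labelled colon, which had 7 miR-467 reads each and 0 of miR-669c. Liver (2.43, 0.957–6.93) and the library labelled uterus (1.71, 0.907–3.31) lay on the side of brain and spleen, with intervals that include 1. Stomach (0.825, 0.548–1.23), heart (0.929, 0.402–2.13) and cerebellum (0.667, 0.138–2.81) lay on the other side, also with intervals that include 1. Pancreas had 0 and 1 reads.

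The shares of miR-669c and its ratios to miR-467 in brain and spleen had overlapping intervals, but its ratios to miR-669a-3p did not overlap. There were 0.0920 (0.0514–0.154) reads of miR-669a-3p per read of miR-669c in brain and 0.252 (0.202–0.313) in spleen. The ratio was 0.745 (0.467–1.18) in stomach with an interval that includes equality, and in lung the counts were 27 and 30 (ratio interval 0.515–1.57). Within the miR-467 family, miR-467e exceeded miR-467d in brain (29 against 10 reads, 2.90, 1.37–6.67) and in spleen (86 against 55, 1.56, 1.10–2.24). In kidney (14 against 26), lung (15 against 24) and oesophagus (11 against 19) the counts lay the other way, with intervals that include equality.

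Brain and cerebellum, the libraries of nervous tissue, differed 3.95-fold (2.46–6.74) in the summed level, from 333 and 18 reads. Without miR-669c the ratio was 2.42 (1.40–4.53). miR-669c was the only member at 10 RPM in either library and stood 9.28-fold (3.56–34.5) higher in brain, from 174 and 4 reads. It passed a rule of 4-fold after adding 1 RPM to both libraries, as did 29.7% of all names at that level in favour of brain and 12.1% in favour of cerebellum.

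Levels did not follow the number of hairpins. miR-669a-3p, matched by name to 12 hairpins, had 20.1 reads per hairpin over all libraries, miR-467a, from 10, had 24.4 and miR-466b-3p, from 8, had 5.00. Among those 12, hairpin 15 also matched a separate name, miR-669a-3-3p, with 1 read, so 12 may overstate the copies of miR-669a-3p. Of the 6 leading members, 4 came from 1 hairpin each, with 860 reads for miR-669c, 193 for miR-467e, 180 for miR-467d and 118 for miR-467c. Because copies of a name share a mature sequence, the counts do not show which hairpin they came from, and how reads that match several names were assigned is not given in the sources used here.

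Single-hairpin names can be placed in the order of the 72 hairpins along the intron. Hairpins 53 to 58, a stretch chosen after its values were seen, hold miR-467e, miR-466p, miR-467d, miR-297c and miR-669c, and Mir466, which matched no name. Their 10 names had 1248 of the 1573 reads of the 50 single-hairpin names (79.3%, identical rows included). The 13 single-hairpin names of the first 12 hairpins had 54 reads, and the 16 names after hairpin 58 had 121. miR-467c is hairpin 13, far from that stretch, and most hairpins between it and hairpin 53 belong to the multicopy names.

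**Figure D5:**
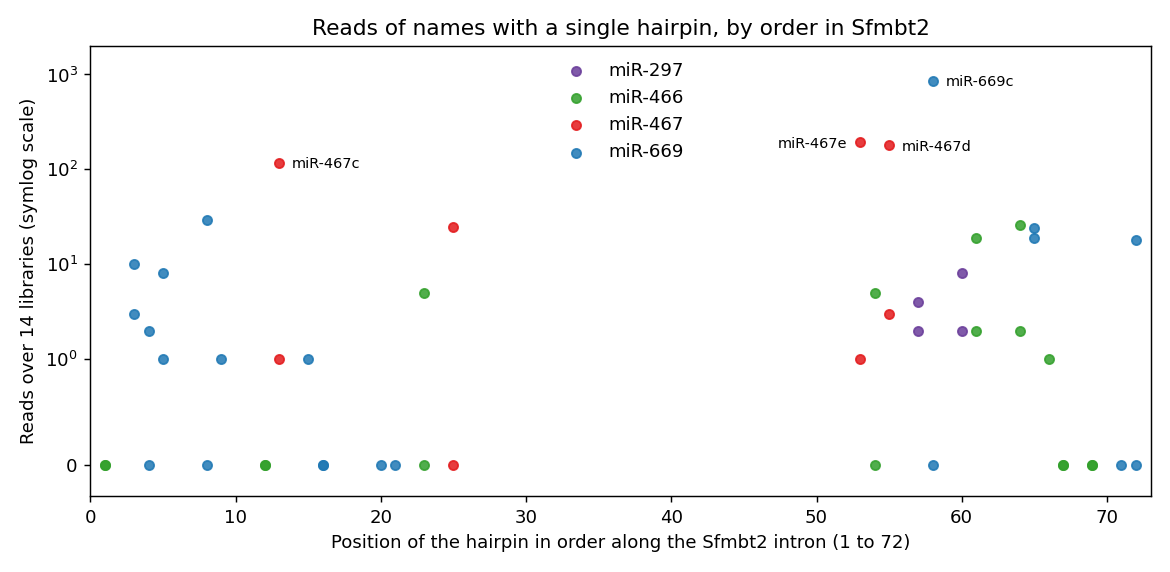
Reads over 14 libraries (symlog axis, linear below 1) for the 50 names with a single hairpin, against the order of the hairpin along the Sfmbt2 intron, coloured by family. The highest points are miR-669c with 860 reads, miR-467e with 193 and miR-467d with 180, close together near the 3′ part of the array, and miR-467c with 118 near its start.

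Arms were unequal in the miR-466 and miR-467 families. In the miR-466 family, 98 of 107 reads (91.6%, 84.6–96.1%) carried 3p names, led by miR-466b-3p with 40 reads and miR-466n-3p with 26. Both of these had 2.47 RPM in spleen, and miR-466b-3p had 1.35 RPM in lung as the next value. Star names made up 5.12% (3.70–6.88%) of miR-467 reads. This share leaves out miR-467c* and miR-467e*, with 1 read each, whose rows are identical to that of miR-466b-5p and were counted there. There were 3 hairpin names with both arms at 10 reads or more in some library. The unstarred arm of miR-467a held 86.5% (82.0–90.3%) of the reads of both arms over all libraries, with 72.5% (56.1–85.4%) in brain, 88.6% (79.5–94.7%) in spleen and 95.3% (84.2–99.4%) in kidney. The 3p arm of miR-669a held 79.3% (74.3–83.7%), and its values in brain (61.5%, 40.6–79.8%) and spleen (76.4%, 68.5–83.2%) overlapped. For miR-669o the 3p and 5p arms were nearly even, at 19 and 24 reads, with 10 each in spleen.

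The miR-297 family was at the limit of detection. miR-297a had 11 reads in all, with 3 each in spleen and lung and 2 in brain. miR-297b-5p had 4 reads in spleen and 4 in brain and none elsewhere, and miR-297c had 4 reads. No member of this family reached 1 RPM in any library. Its summed ratio of spleen over brain was 1.23 (0.422–3.67), which does not show a difference at this depth.

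Specificity was measured by tau, an index that runs from 0 for even abundance to 1 for a single tissue, on log2(RPM + 1) for names with 10 RPM in some library. Of the 6 members that qualified, 5 reached 10 RPM only in spleen, so the index is given as a description of these names and is not set against other names. miR-467c had the highest value (0.823), then miR-467e (0.762), miR-669a-3p (0.713) and miR-669c (0.692), and miR-467a the lowest (0.653). The names whose log2(RPM + 1) profile over the 14 libraries was most like the summed members were miR-150, a lymphocyte miRNA (Pearson r = 0.914), miR-421 (0.902), miR-342-3p (0.872), miR-16-2* (0.870) and miR-106b* (0.837), among 412 names. miR-150 had 807 RPM in spleen, 147 in brain and 60.0 in lung, and only 0.788 in liver. The libraries share the pull of miR-143 on RPM, and with miR-143 left out of the totals miR-421 (0.893) and miR-342-3p (0.863) came first and miR-150 was not among the leading 5. These correlations are descriptions over 14 single libraries.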

How the data were processed

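Small RNA was sequenced from 14 tissues, with 1 pooled library per tissue. Per the labels' protocols, total RNA was extracted with Trizol and libraries followed standard Illumina steps. The table the authors deposited gives raw counts of reads, 1 row per miRNA name, with no scaling. Trimming, aligner, miRNA release, genome build and the treatment of reads that match several names are not stated in the sources used here, so near-identical members may share reads. All 14 columns were matched to a tissue by name.

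Each count was scaled to 1000000 miRNA reads of its library (RPM). Levels have exact Poisson intervals, shares exact Clopper-Pearson intervals and ratios an exact interval conditional on the sum of both counts (95% throughout). Without molecular identifiers, intervals and the floor of 3 counts cover counting error only. Fixed rules of size replaced tests: 10 reads over all libraries, 1 or 10 RPM, 2-fold, and 4-fold with 1 RPM added. These rules ran on the whole table, with identical rows counted once, and the 4-fold rule was tested on simulated data. Alternatives were median-of-ratios factors, totals without miR-143 or without the 5 most abundant names, every row counted, and other thresholds. For the median-of-ratios factors, names absent from some libraries were kept. The median of each library was taken over the names with reads in it, so the medians rest on different sets of names. Named members were those at 10 RPM in some library, the 3 with most reads in each family, hairpins with both arms at 10 reads, and exceptions to a count. Members, lists and rules were chosen with earlier results of these data known, and the 2-fold rule, within-library ratios, hairpin order and repeat runs were chosen after values were seen. Hairpins were placed by gene name in the RefSeq annotation of GRCm38.p6, used only for names and neighbours, and exons of Sfmbt2 came from GENCODE M21. Python 3.11.15, pandas 2.3.3, NumPy 2.4.6 and SciPy 1.17.1 were used.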

Additional observations from a re-analysis of the deposited data

How the results depend on the processing

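No paired analysis was possible because each tissue has 1 library. Spleen kept the highest summed level under all 4 scalings. Its value of 195.7 RPM became 126 (median-of-ratios factors), 406 (miR-143 left out of the total), 1248 (the 5 leading names of each library left out of the total) and 108 (miR-669c left out of the sum). Its ratio to brain (3.12) became 7.78, 6.07, 6.88 and 3.62 in the same order. The brain to cerebellum ratio (3.95) was 2.42 without miR-669c and stayed inside its counting interval under the 3 other scalings. Of the 9 members with 30 reads or more, spleen reads included, 8 were highest in spleen, against 16 of 20 with 10 reads or more. Members present in spleen numbered 6 at 10 RPM instead of 16 at 1 RPM, and 32 when the 5 leading names were left out of the total. These 32 are all the members with a read in spleen, so the minimum left none of them out at that setting. The 4-fold rule between brain and cerebellum called 1 member, but 0 with 10 RPM added or under median-of-ratios factors, and 2 when the 5 leading names were left out of the total. Shares over all names were not taken for the counts at these other settings, so those counts describe the members only. The median tau of the 6 members, 0.702, became 0.252 with 10 RPM added and 0.568 without the 5 leading names in the total. The cause of these shifts was not tested. Depth limits the rest: with 4 member reads in pancreas, 7 in the library labelled colon and 9 in ovary, the order of those libraries is not resolved.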

Other observations

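Runs of alternating A and C, or of G and U, of at least 8 bases were searched in the mature sequences of the 281 table names matched to RefSeq, a length chosen after the member sequences were seen. They occurred in 9 names (3.20%), of which 5 were members: miR-466i-3p, miR-466k, miR-467f, miR-467g and miR-669n. The other 4 were miR-574-5p, miR-1187, miR-3097-5p and miR-3082-5p. The 5 members were already known to have no reads. Of the other 4, miR-574-5p, with the longest run (13 bases), and miR-1187 had no reads in the 14 libraries, and miR-3097-5p and miR-3082-5p had 1 read each. Among the 272 matched names without such a run, 103 (37.9%) had no reads, and 4 names are too few to set apart from that share. How reads from such repeats were handled upstream is not given in the sources used here.

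The miR-290 to miR-295 cluster and X-linked testis names, known mainly from early development or germ cells, had fewer reads than the Sfmbt2 families. No other such cluster was compared, and both lists hold fewer names than the members. The miR-290 to miR-295 cluster, known from embryonic stem cells and placenta, has 14 names in the table. With identical rows counted once they had 1 read in all, in lung, in a row that 3 of the names share. The 32 X-linked names known from testis, counted in the same way, had 35 reads in all. Of these, 10 were in liver, 7 in brain, 6 in heart and 4 in spleen. No single library exceeded 1.58 RPM for their sum.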
